A study of Mus musculus with 13 samples.

Results

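Regulators of mitochondrial gene expression, the nuclear genes Ppargc1a, Ppargc1b, Esrra, Esrrb, Esrrg, Tfam, Nrf1, Ppara, Ppard and Polrmt, were chosen by name and read from the normalized expression sheet of a mouse muscle RNA-seq study. All 10 of the 10 were listed among 13846 genes, and all 10 passed the filter on low values, which kept 13831 genes. The 13 libraries (WT 5, mdx 4, mdxTG 4) were made from polyadenylated RNA of the tibialis anterior, a muscle on the front of the shin with mostly fast fibres. The mdx mouse carries a mutation in the dystrophin gene Dmd and is a model of Duchenne muscular dystrophy. The mdxTG mice are mdx mice with a transgene for sarcospan (Sspn), a small protein of the dystrophin complex in the muscle membrane. The mdx and mdxTG groups therefore share the Dmd mutation, and only mdxTG carries the transgene. The labels give no age, no promoter or species for the transgene, and do not say whether each library is a separate animal, so that p-values reflect only how much these samples vary, which could be technical variation.

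Mitochondria are built from proteins of the nuclear and the mitochondrial genome, and the nuclear genes among them are switched on by a small group of transcription factors and coactivators. The coactivators PGC-1α (Ppargc1a) and PGC-1β (Ppargc1b) do not bind DNA but act through the estrogen-related receptors ERRα, ERRβ and ERRγ (Esrra, Esrrb, Esrrg), nuclear respiratory factor NRF1 (Nrf1) and the fatty acid receptors PPARα and PPARδ (Ppara, Ppard). Inside the organelle, the DNA-packaging protein TFAM (Tfam) and the RNA polymerase POLRMT (Polrmt) transcribe the mitochondrial genome. In skeletal muscle this circuit is known for its activity in oxidative fibres and its response to endurance exercise.

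The start regions of 3 regulators are shown because they hold sequences that other regulators of the group, or their partners, are known to read. RefSeq promoter windows of build GRCm38.p6, from 250 bases before to 50 after a start, were found for 9 of the 10 genes, in 14 windows, with Ppargc1b the exception. Both strands were searched for the GC-rich palindromic NRF1 motif, the ETS motif CCGGAAG read by GABPA, the ERR motif TNAAGGTCA, the PPAR direct repeat and the CREB motif TGACGTCA. The lines give 100 bases before and 10 after the start, 5′ to 3′ on the strand of the gene, with the motifs in capitals. The starts are those of RefSeq. The Tfam and Ppara stretches lie inside the GENCODE gene spans given below, so other starts are annotated upstream of them.
Tfam, chr10:71238035-71238144, minus strand: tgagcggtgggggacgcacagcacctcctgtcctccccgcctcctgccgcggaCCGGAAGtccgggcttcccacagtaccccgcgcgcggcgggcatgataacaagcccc
Polrmt, chr10:79746572-79746681, minus strand: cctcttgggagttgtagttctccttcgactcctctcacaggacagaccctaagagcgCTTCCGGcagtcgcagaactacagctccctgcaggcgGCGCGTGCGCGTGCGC
Ppara, chr15:85735676-85735785, plus strand: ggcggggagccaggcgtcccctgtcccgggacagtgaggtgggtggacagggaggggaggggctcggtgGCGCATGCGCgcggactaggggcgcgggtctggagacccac
The capitals in Tfam are the ETS motif, with its first base at position -47 from the start. In Polrmt the first capitals are the ETS motif on the opposite strand at -43, and the last are 2 overlapping NRF1 motifs at -6 and 1. The capitals in Ppara are the NRF1 motif at -31. The NRF1 motif was present in 4.6% of 32851 promoter windows and the ETS motif in 8.86%. The ERR motif (1.28% of windows), the PPAR repeat (0.0396%) and the CREB motif (1.79%) were in 0 of the 14 windows of the regulators, which says only that these letters were not found there.

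Library totals were 53.26 to 68.44 M reads, of which 41.74 to 53.87 M fell on listed genes, and 3 reads, the limit that a count of 0 allows, came to 0.0504 to 0.0818 normalized CPM (counting error only). The deposited values, called normalized CPM here, are reads scaled by an effective library size, and the implied scaling factors differed by genotype, with WT at 0.831 to 0.932, mdx at 1.006 to 1.068 and mdxTG at 1.107 to 1.191. In plain CPM, without these factors, the median log2 fold of all genes shifted to 0.20 in mdx against WT, 0.13 in mdxTG against mdx and 0.36 in mdxTG against WT, and the share of calls that were higher went from 53.5% to 87.5%, from 54.4% to 78.1% and from 53.1% to 87.0%. Sspn averaged 1738 normalized CPM in mdxTG against 114 in mdx, and Dmd averaged 52.6 in mdx against 223 in WT, each without overlap between the groups. Of the WT libraries, replicate 1 had a summed slow fibre marker level of 7827 normalized CPM, against 240 to 485 in the other 4, and replicate 2 had the highest mitochondrial share (19.2%) and the lowest share of uniquely mapped reads (80.9%).

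Per kilobase of exon, Esrra had the highest level of the 10 in every genotype. Its mean was 24.2 ± 1.79 normalized CPM per kb in WT (SD, n = 5), 18.3 ± 1.89 in mdx and 16.2 ± 0.573 in mdxTG (SD, n = 4 each), and its range lay apart from that of Tfam, the next gene, in all 3 groups. Tfam came next with WT at 9.69, mdx at 8.36 and mdxTG at 7.10, followed by Ppargc1a with 7.78, 7.58 and 4.802. The ranges of Tfam and Ppargc1a overlapped in WT and mdx and were apart in mdxTG. The order of the next genes differed by genotype: Polrmt, Esrrg, Ppargc1b, Ppara and Ppard in WT, where each range overlapped that of the next gene, from 6.60 for Polrmt to 3.59 for Ppard. In mdx the order was Polrmt (4.88), Ppard (3.33), Esrrg (2.65), Ppargc1b (2.51) and Ppara (2.40), with overlap among the last 4. In mdxTG Ppargc1b (4.28) stood next to Polrmt (4.61), with overlapping ranges, above Esrrg (3.43), Ppard (3.33) and Ppara (1.74). Esrrb and Nrf1 were the 2 lowest in every group, at 1.32 and 1.27 in WT with overlapping ranges, and at 0.411 and 1.203 in mdx and 0.426 and 1.03 in mdxTG, where the ranges of the 2 genes were apart.

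The effect of the dystrophin mutation was asked by comparing mdx with WT. In the limma fit over all genes, 6 of the 10 regulators fell in mdx at an adjusted p under 0.05 and 0 rose. Of all genes tested, 34.6% passed, 16.1% lower and 18.5% higher. No regulator was higher at an unadjusted p under 0.05, and edgeR and DESeq2 likewise gave 6 lower and 0 higher. In plain CPM 2 of the 6, Esrrb and Esrrg, passed, Tfam lay at 0.02 on the log2 scale, and relative to the shift of all genes the 6 lay at -0.18 to -1.47. The groups did not overlap for 3 regulators, Esrra, Esrrb and Polrmt, compared with 26.7% of all genes without overlap and 11.7% of all genes lower without overlap. The effect of the transgene was asked by comparing mdxTG with mdx: 2 regulators fell (Ppargc1a and Tfam) and 1 rose (Ppargc1b), where 28.4% of all genes passed, 12.9% lower and 15.4% higher. Against WT, 7 regulators fell in mdxTG and 0 rose, where 54.0% of all genes passed, 25.3% lower and 28.7% higher, and the count at an unadjusted p under 0.05 was also 7 lower and 0 higher, with 8 lower and 0 higher in both edgeR and DESeq2. Between mdxTG and WT 5 regulators did not overlap, all lower (Esrra, Esrrb, Tfam, Nrf1 and Polrmt). Of all genes, 43.2% did not overlap, 19.5% lower and 23.7% higher. Without the scaling factors Tfam, Nrf1 and Polrmt overlapped between these groups, and Esrra and Esrrb did not. In plain CPM the count of regulators past the threshold was 1 (Ppargc1b) in mdxTG against mdx. It was 3 in mdxTG against WT, where Esrra and Esrrb were lower and Ppard was higher. Of all 13831 genes, plain CPM gave 736 lower and 5153 higher in mdx against WT. It gave 980 lower and 3503 higher in mdxTG against mdx, and 1181 lower and 7916 higher in mdxTG against WT. Leaving out 1 library at a time gave 4 to 7 regulators in mdx against WT, 6 to 8 in mdxTG against WT and 0 to 4 in mdxTG against mdx. In the last comparison the count was 1 without mdx replicate 1, 2 or 4 or without mdxTG replicate 2, and 0 without mdxTG replicate 4.

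**Figure D1:**
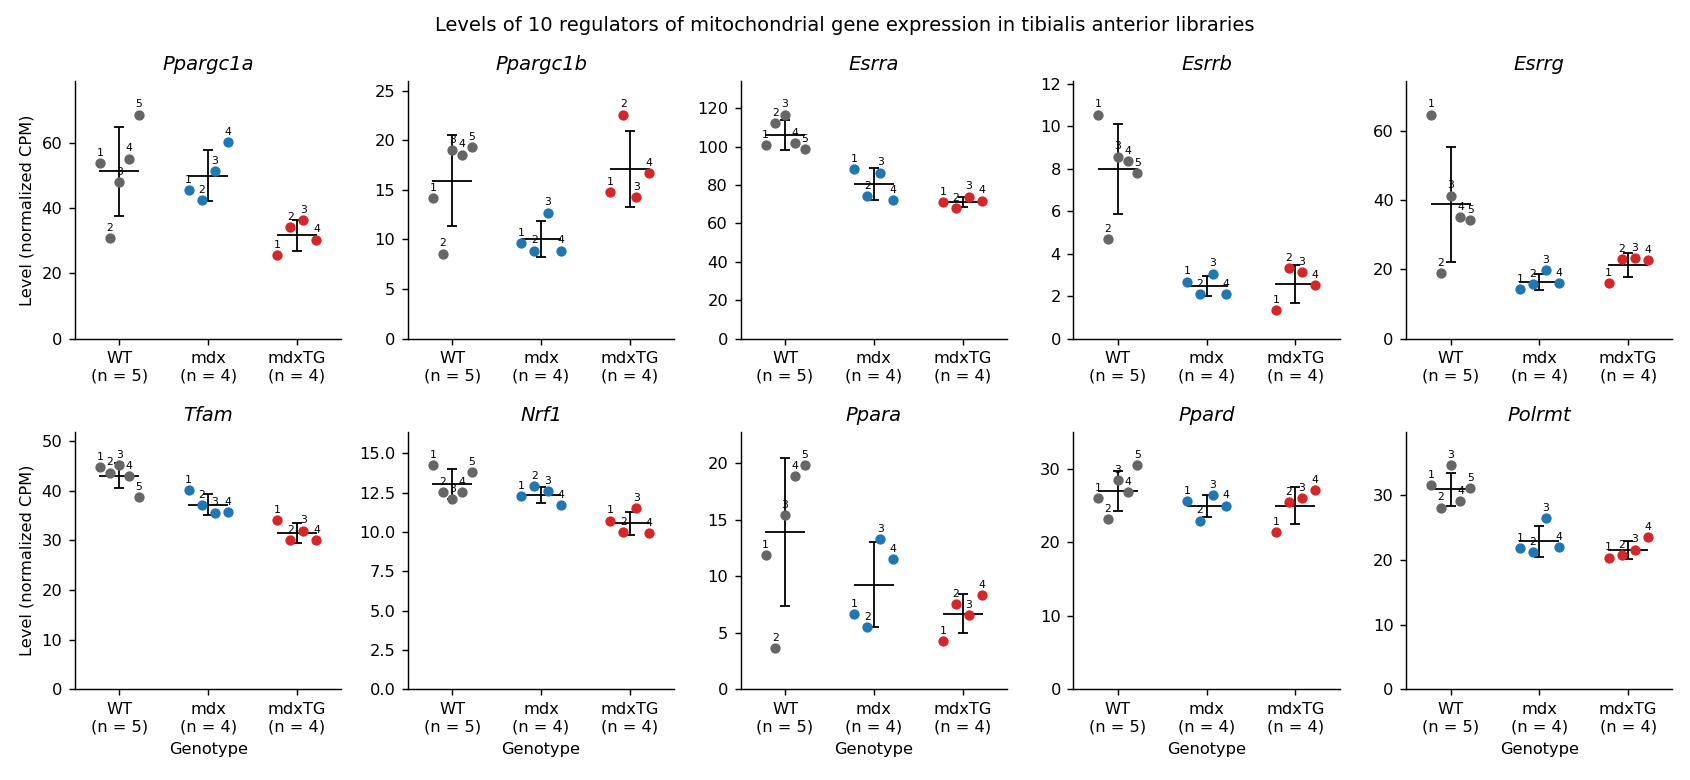
Normalized CPM (y axes, from 0) of each regulator in every library by genotype (x axes); points carry the replicate number, and the black line and bar are the mean and SD. Esrrb lay between 4.69 and 10.6 in WT and at or below 3.31 in both mdx groups, while Ppargc1a was lowest and Ppargc1b high in mdxTG relative to mdx.

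The 2 PGC-1 coactivators moved in opposite directions between mdx and mdxTG. Ppargc1a (chromosome 5, 51454250 to 51567726, mm10, minus strand), the coactivator induced by exercise and cold, measured 53.9, 30.9, 47.9, 55.2 and 68.7 normalized CPM in WT replicates 1 to 5, 45.6, 42.4, 51.5 and 60.3 in mdx replicates 1 to 4, and 25.5, 34.3, 36.4 and 30.4 in mdxTG replicates 1 to 4. All mdxTG libraries were below all mdx libraries, and among WT libraries replicate 2 alone lay within the mdxTG range. Its mean fell to 31.7 ± 4.81 in mdxTG from 49.9 ± 7.86 in mdx (n = 4 each, SD), a log2 fold of -0.65 ± 0.20 (SE, limma adjusted p = 0.0224). This call was lost without mdx replicate 3 (adjusted p = 0.0509), mdx replicate 4 (0.0669), mdxTG replicate 1 (0.0698) or mdxTG replicate 4 (0.0525), and in plain CPM (log2 fold -0.51, adjusted p = 0.0793). Against WT the log2 fold in mdxTG was -0.65 ± 0.19 (SE, limma adjusted p = 0.00821), and in plain CPM -0.28 (adjusted p = 0.225). The mdx and WT libraries overlapped (WT mean 51.3 ± 13.7, SD, n = 5), and the 95% interval of the mdx to WT ratio was 0.757 to 1.31.

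Ppargc1b, the close relative of PGC-1α, measured 14.2, 8.56, 19.0, 18.5 and 19.3 normalized CPM in WT replicates 1 to 5, 9.60, 8.87, 12.7 and 8.87 in mdx, and 14.8, 22.6, 14.3 and 16.7 in mdxTG. All mdxTG libraries were above all mdx libraries, and the WT libraries spanned both groups because WT replicate 2 was below every mdx library. It rose to 17.1 ± 3.81 in mdxTG from 10.01 ± 1.83 in mdx (n = 4 each, SD), a ratio of 1.66 (95% interval 1.19 to 2.32) and a log2 fold of 0.73 ± 0.23 (SE, limma adjusted p = 0.0247); in plain CPM the log2 fold was 0.87 (adjusted p = 0.013). The call was lost without mdx replicate 1 (adjusted p = 0.0547), mdx replicate 2 (0.0638), mdx replicate 4 (0.0609), mdxTG replicate 2 (0.084) or mdxTG replicate 4 (0.0513). In mdx it fell from a WT mean of 15.9 ± 4.61 (SD, n = 5), with a log2 fold of -0.60 ± 0.21 (SE, limma adjusted p = 0.0416). That call was lost with the replicate number as a block (log2 fold -0.52, adjusted p = 0.0967), in a fit of these groups alone (adjusted p = 0.0632) and in plain CPM (0.203). It was also lost without WT replicate 1 (adjusted p = 0.0518), 3 (0.0916), 4 (0.0918) or 5 (0.0874), without mdx replicate 1 (0.0794), 2 (0.102) or 4 (0.104), and without mdxTG replicate 4 (0.0534). Between mdxTG and WT the ratio had a 95% interval of 0.798 to 1.51.

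The ratio of Ppargc1a to Ppargc1b reads within a library does not depend on the scaling factors and is given as a description without a test. It was 2.52 to 3.80 (WT), 4.05 to 6.80 (mdx) and 1.52 to 2.55 (mdxTG), with means of 3.29, 5.10 and 1.90. Every mdx library was above every WT and every mdxTG library, and mdxTG replicate 3 (2.55) lay just above the lowest WT library (2.52). WT replicate 2, low in both genes, had a ratio of 3.61, inside the range of the other WT libraries.

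**Figure D2:**
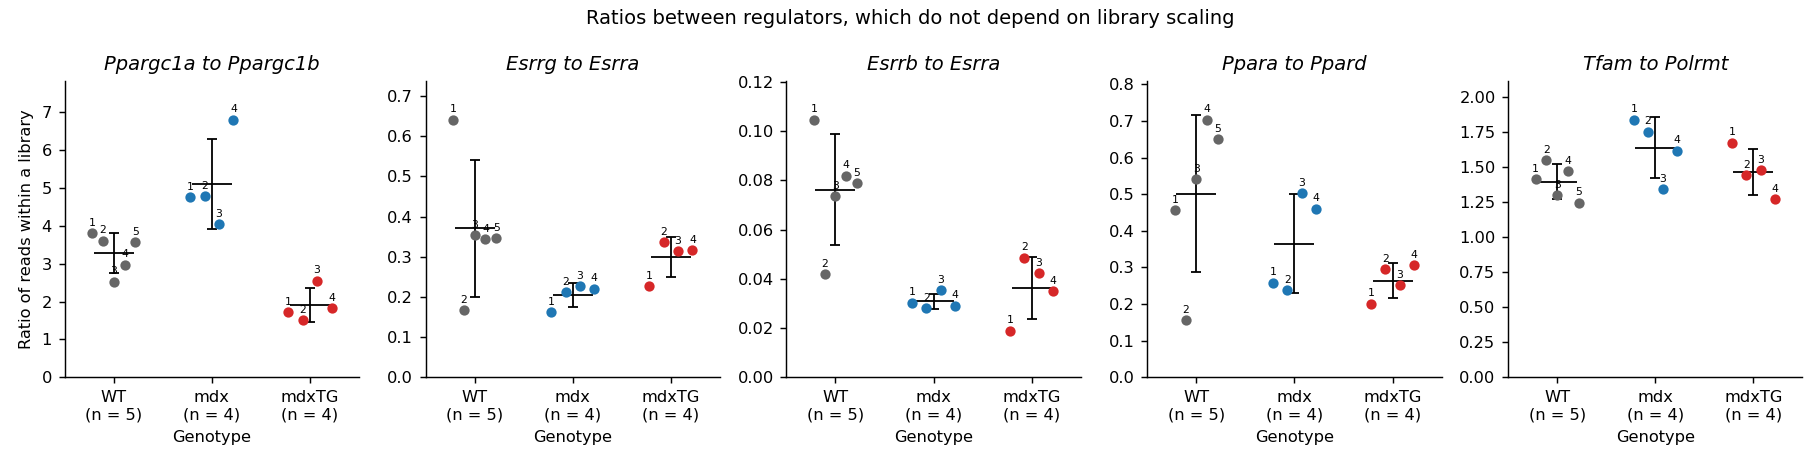
Ratio of reads of 2 regulators within each library (y axes, from 0) by genotype (x axes); points carry the replicate number, and the black line and bar are the mean and SD. The Ppargc1a to Ppargc1b ratio separates mdx (4.05 to 6.80) from mdxTG (1.52 to 2.55).

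All 3 estrogen-related receptor genes fell in mdx, and 2 of the 3, Esrrb and Esrrg, also passed in plain CPM. Esrra (chromosome 19, 6910977 to 6921813, minus strand), a main partner of PGC-1α in energy metabolism, measured 101, 112, 117, 102 and 98.8 normalized CPM in WT, 88.4, 74.1, 86.4 and 72.3 in mdx, and 71.3, 67.9, 74.0 and 71.9 in mdxTG. Both mdx groups lay wholly below WT, and the mdxTG libraries were spread over the low end of the mdx range and below. The mean was 106 ± 7.86 in WT (SD, n = 5), 80.3 ± 8.31 in mdx and 71.2 ± 2.51 in mdxTG (SD, n = 4 each). Its log2 fold was -0.40 ± 0.08 in mdx against WT (SE, limma adjusted p = 0.00123) and -0.57 ± 0.08 in mdxTG against WT (adjusted p = 2.94e-05). In plain CPM these were -0.17 (adjusted p = 0.0897) and -0.19 (adjusted p = 0.0382). The plain CPM values of mdx overlapped WT, and those of mdxTG (79.6 to 82.4) lay below WT (83.7 to 106). Between mdxTG and mdx the difference did not pass (log2 fold -0.17 ± 0.08, limma adjusted p = 0.151), with a 95% interval of the ratio from 0.789 to 1.01.

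Esrrb (chromosome 12, 86361117 to 86521628, plus strand), the receptor also known from embryonic stem cells and retinal photoreceptors, had the largest fold of the 10 in mdx. It measured 10.6, 4.69, 8.57, 8.35 and 7.79 normalized CPM in WT, 2.68, 2.09, 3.07 and 2.10 in mdx, and 1.35, 3.31, 3.12 and 2.53 in mdxTG. These levels rested on 172 to 437 reads for WT, 94 to 140 for mdx and 65 to 186 for mdxTG. Every WT library was above every mdx and mdxTG library. The mean was 7.99 ± 2.12 in WT (SD, n = 5), 2.49 ± 0.474 in mdx and 2.58 ± 0.881 in mdxTG (SD, n = 4 each), with log2 folds of -1.48 ± 0.23 in mdx against WT (SE, limma adjusted p = 2.04e-04) and -1.48 ± 0.23 in mdxTG against WT (adjusted p = 8.32e-05). In plain CPM they were -1.27 (adjusted p = 6.73e-04) and -1.14 (adjusted p = 6.30e-04). The mdxTG to mdx ratio had a 95% interval of 0.702 to 1.43, and its sign differed between settings. In the authors' deposited table for mdx against WT, which is limited to adjusted p below 0.01 and to log2 folds larger than 1 either way, Esrrb was listed with -1.69, and in their table for mdxTG against WT with -1.63.

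Esrrg (chromosome 1, 187608791 to 188214885, plus strand), the receptor linked to slow, oxidative fibres, measured 64.7, 18.8, 41.3, 35.0 and 34.2 normalized CPM in WT, 14.4, 15.8, 19.7 and 15.9 in mdx, and 16.1, 22.9, 23.3 and 22.8 in mdxTG. WT replicate 1 was far the highest and WT replicate 2 lay inside the range of the other genotypes, so the groups overlapped in each comparison. The mean was 38.8 ± 16.7 in WT (SD, n = 5), 16.4 ± 2.28 in mdx and 21.3 ± 3.43 in mdxTG (SD, n = 4 each). It fell in mdx with a log2 fold of -1.12 ± 0.25 (SE, limma adjusted p = 0.00314) and in plain CPM with -0.89 (adjusted p = 0.0107); the authors' deposited table gives -1.24. Against WT, mdxTG was lower with a log2 fold of -0.76 ± 0.25 (SE, limma adjusted p = 0.0187), a call lost without mdxTG replicate 1 (-0.64, adjusted p = 0.0627) and in plain CPM (-0.39, adjusted p = 0.181). Between mdxTG and mdx the log2 fold was 0.36 ± 0.26 (SE, limma adjusted p = 0.343), with a 95% interval of the ratio from 0.868 to 1.89.

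WT replicate 1, the library with the highest Esrrg and Esrrb, also had the highest summed level of 10 slow fibre markers, 7827 normalized CPM against 240 to 485 in the other WT libraries, 268 to 337 in mdx and 400 to 594 in mdxTG, with 0 of the 10 markers at 0. Without WT replicate 1 both receptors remained past the threshold in mdx against WT, with log2 folds of -1.37 (adjusted p = 0.000465) for Esrrb and -0.91 (adjusted p = 0.00349) for Esrrg. In bulk samples, fewer cells of a type and less RNA per cell cannot be told apart. Within a library, the ratio of Esrrb to Esrra was 0.0418 to 0.105 (WT), 0.0283 to 0.0355 (mdx) and 0.0190 to 0.0487 (mdxTG), so that mdx lay below WT and mdxTG overlapped both. The ratio of Esrrg to Esrra was 0.168 to 0.642 (WT), 0.162 to 0.228 (mdx) and 0.227 to 0.338 (mdxTG). WT replicate 2 (0.168) was the only WT library inside the mdx range, and mdxTG overlapped mdx only through mdxTG replicate 1 (0.227).

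The 2 genes of the mitochondrial transcription machinery were lower in both mdx groups than in WT when the authors' scaling was kept; neither passed in plain CPM. Tfam (chromosome 10, 71225464 to 71238280, minus strand), whose start region with the ETS motif is printed above, measured 44.7, 43.6, 45.1, 42.9 and 38.7 normalized CPM in WT, 40.1, 37.1, 35.6 and 35.7 in mdx, and 34.1, 30.0, 32.0 and 30.0 in mdxTG. All mdxTG libraries were below all libraries of the other genotypes, and mdx overlapped WT through WT replicate 5 and mdx replicate 1. In plain CPM all groups overlapped, at 36.1 to 41.1 (WT), 35.8 to 40.7 (mdx) and 34.4 to 38.1 (mdxTG). The means in normalized CPM were 43.0 ± 2.56 in WT (SD, n = 5), 37.1 ± 2.12 in mdx and 31.5 ± 1.96 in mdxTG (SD, n = 4 each). The log2 fold was -0.21 ± 0.07 in mdx against WT (SE, limma adjusted p = 0.0303) and 0.02 in plain CPM (adjusted p = 0.808). It was -0.23 ± 0.07 in mdxTG against mdx (limma adjusted p = 0.0272; -0.09 and 0.325 in plain CPM) and -0.44 ± 0.07 in mdxTG against WT (limma adjusted p = 9.55e-05; -0.07 and 0.351 in plain CPM). The call in mdx against WT was lost in a fit of these groups alone (adjusted p = 0.0556) and when WT library 1 (0.0619), 3 (0.0661) or 4 (0.0539) or mdx library 2 (0.059), 3 (0.0805) or 4 (0.0868) was left out. The call in mdxTG against mdx was lost without mdx replicate 1 (0.0865) or 2 (0.0535) or mdxTG replicate 2 (0.0787) or 4 (0.0797).

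Polrmt (chromosome 10, 79736123 to 79746581, minus strand), with the NRF1 and ETS motifs printed above at its start, measured 31.6, 28.1, 34.6, 29.1 and 31.1 normalized CPM in WT, 21.8, 21.2, 26.5 and 22.04 in mdx, and 20.4, 20.8, 21.6 and 23.6 in mdxTG. Every WT library was above every mdx and mdxTG library, and mdx replicate 3 stood above the other mdx libraries. The WT range overlapped those of mdx and mdxTG in plain CPM. The log2 fold was -0.43 ± 0.08 in mdx against WT (SE, limma adjusted p = 0.00131; -0.20 and 0.0957 in plain CPM) and -0.51 ± 0.08 in mdxTG against WT (limma adjusted p = 1.58e-04; -0.14 and 0.2 in plain CPM). Between mdxTG and mdx the log2 fold was -0.08 ± 0.09 (SE, limma adjusted p = 0.551; 0.06 in plain CPM), with a 95% interval of the ratio from 0.830 to 1.08. The ratio of Tfam to Polrmt reads overlapped between all groups, at 1.25 to 1.55 for WT, 1.35 to 1.84 for mdx and 1.27 to 1.67 for mdxTG.

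Nrf1 (chromosome 6, 30047988 to 30153458, plus strand), the factor that binds GC-rich sites at many nuclear genes for respiratory subunits, was lower in mdxTG than in WT under the authors' scaling, but not without it. It measured 14.2, 12.5, 12.1, 12.6 and 13.8 normalized CPM in WT, 12.3, 12.9, 12.6 and 11.7 in mdx, and 10.7, 10.01, 11.5 and 9.94 in mdxTG. All mdxTG libraries were below all others, and the WT and mdx libraries overlapped. In plain CPM mdxTG (11.4 to 12.8) overlapped both WT (10.7 to 12.9) and mdx (12.5 to 13.4). The log2 fold in mdxTG against WT was -0.29 ± 0.08 (SE, limma adjusted p = 0.00465; 0.07 and 0.439 in plain CPM). Against mdx it was -0.22 ± 0.08 and missed the threshold (limma adjusted p = 0.0518), which it passed in edgeR (0.0496), in DESeq2 (0.0163), with a filter of 5 CPM (0.041) and with median-of-ratios scaling (0.0347). It also passed in a fit of mdxTG and mdx alone (0.0482) and without WT replicate 1 (0.0441), WT replicate 2 (0.0411) or mdxTG replicate 3 (0.0388). In mdx against WT the ratio had a 95% interval of 0.850 to 1.06. Nrf1, Tfam, Ppargc1a and Ppargc1b were the 4 regulators without overlap between mdxTG and mdx. Of all genes, 33.0% did not overlap there, 15.0% lower and 18.1% higher. In plain CPM Nrf1 and Tfam overlapped between mdxTG and mdx, and Ppargc1a and Ppargc1b did not.

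The PPAR genes did not pass in any of the 3 comparisons. Ppara (chromosome 15, 85734983 to 85802819, plus strand), the receptor that switches on fatty acid oxidation in fasting, measured 11.9, 3.63, 15.4, 18.8 and 19.8 normalized CPM in WT, 6.63, 5.48, 13.3 and 11.5 in mdx, and 4.29, 7.56, 6.55 and 8.31 in mdxTG. WT replicate 2 was the lowest of all 13 libraries, and without it the 4 WT libraries lay above all mdxTG libraries. The mean was 13.9 ± 6.54 in WT (SD, n = 5), 9.22 ± 3.75 in mdx and 6.68 ± 1.75 in mdxTG (SD, n = 4 each), with log2 folds of -0.46 ± 0.40 in mdx against WT (SE, limma adjusted p = 0.403) and -0.85 ± 0.40 in mdxTG against WT (adjusted p = 0.0886). Without WT replicate 2 these became -0.86 (adjusted p = 0.0217) and -1.25 (adjusted p = 0.00142), and edgeR and DESeq2 passed the second difference with all libraries (adjusted p = 0.0339 and 0.031). The mdxTG to mdx ratio had a 95% interval of 0.407 to 1.43.

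Ppard (chromosome 17, 28232700 to 28301474, plus strand) is the PPAR form known to prevail in muscle fibres. Under the authors' scaling it varied least among the 10 across libraries. It measured 26.0, 23.2, 28.5, 26.8 and 30.5 normalized CPM in WT, 25.7, 22.9, 26.4 and 25.0 in mdx, and 21.3, 25.5, 26.0 and 27.1 in mdxTG, with overlap between all groups. The 95% intervals of its ratios were 0.814 to 1.06 for mdx against WT, 0.865 to 1.148 for mdxTG against mdx and 0.811 to 1.06 for mdxTG against WT. In plain CPM it was higher in mdxTG than in WT (log2 fold 0.26, adjusted p = 0.0435), which is -0.10 relative to the shift of all genes. Its plain CPM values ran from 19.8 to 31.0 over the libraries, where those of Tfam ran from 34.4 to 41.1. The ratio of Ppara to Ppard was 0.156 to 0.703 (WT), 0.239 to 0.502 (mdx) and 0.201 to 0.307 (mdxTG), with WT replicate 2 lowest.

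**Figure D3:**
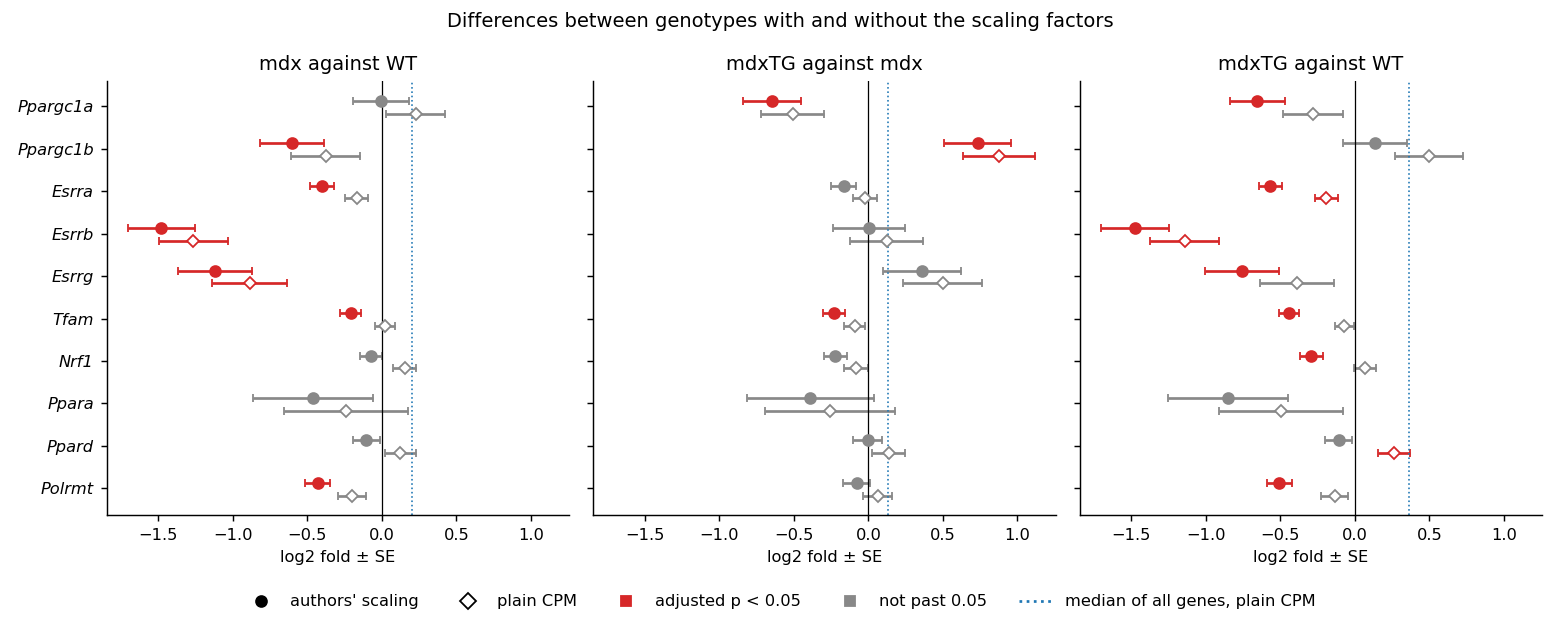
Log2 fold ± SE (x axis) of each regulator (y axis) in the 3 comparisons, as filled circles under the authors' scaling and as open diamonds in plain CPM; red marks an adjusted p under 0.05, and the dotted line is the median of all genes in plain CPM. With the authors' scaling 6, 3 and 7 regulators passed and in plain CPM 2, 1 and 3, and Tfam in mdx against WT and Nrf1 in mdxTG against WT change sign.

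Across the 13 libraries the 10 regulators varied to different degrees under the authors' scaling. The root mean square deviation of the log2 level from the gene's mean was 0.794 for Esrrb, 0.715 for Ppara, 0.61 for Esrrg, 0.447 for Ppargc1b and 0.41 for Ppargc1a, and 0.126 to 0.263 for Ppard, Nrf1, Tfam, Polrmt and Esrra. WT replicate 2 was the lowest WT library for 7 of the 10 genes, Ppargc1a, Ppargc1b, Esrrb, Esrrg, Ppara, Ppard and Polrmt. The same library had 19.2% of its gene reads on the mitochondrial genome, against 12.7 to 16.2% in the other WT libraries, 10.5 to 14.8% in mdx and 8.78 to 10.9% in mdxTG.

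**Figure D4:**
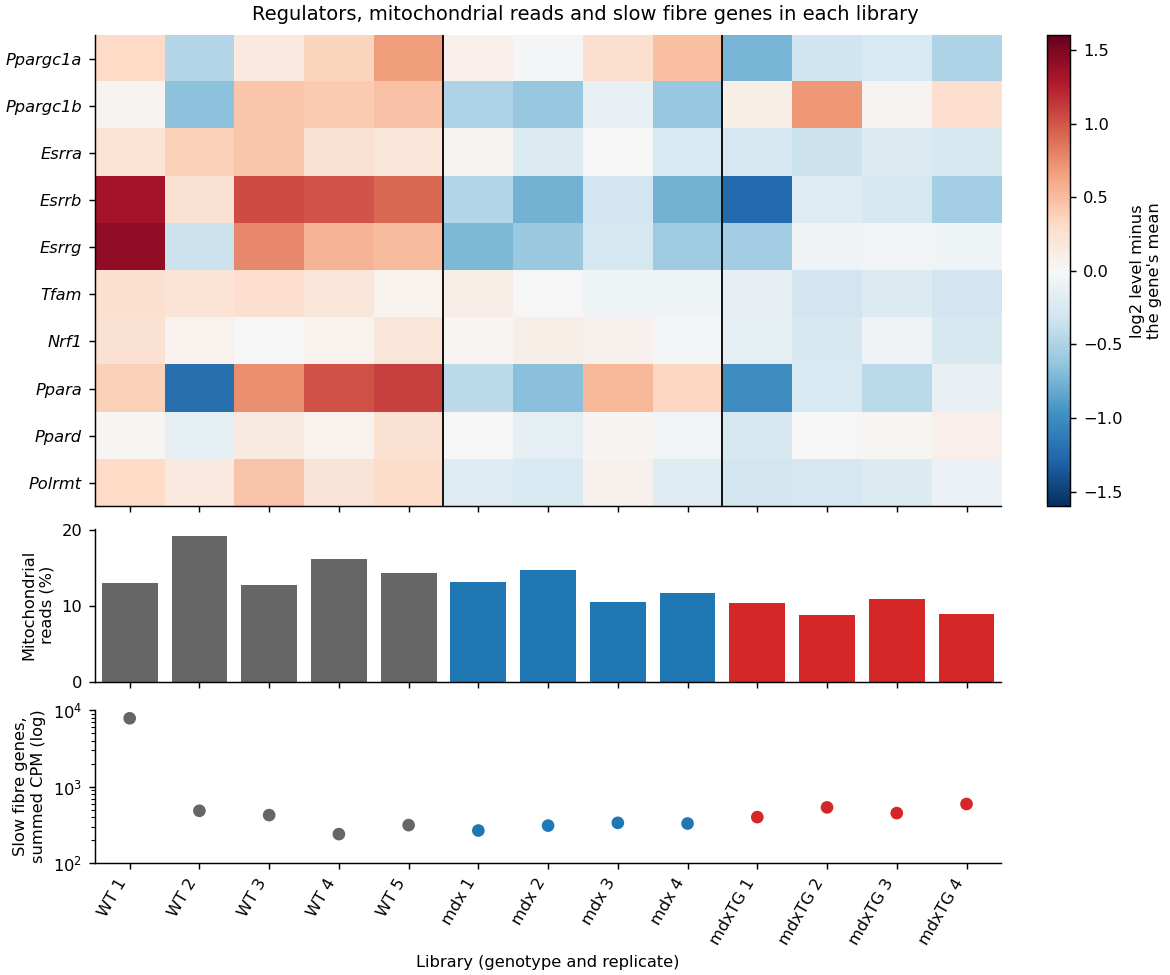
Log2 level of each regulator minus its mean over the 13 libraries (colour), with the mitochondrial share of gene reads (bars, %) and the summed level of 10 slow fibre markers (points, normalized CPM on a log axis) for each library (x axis). WT replicate 1 has the highest Esrrb, Esrrg and slow fibre level (7827), and WT replicate 2 the lowest Ppara and the highest mitochondrial share (19.2%).

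For each regulator the genes with the most similar pattern were found among 12974 genes by the root mean square difference of centred log2 levels over 13 libraries, as a description. Ppargc1a lay nearest to Fgd4 (difference 0.175), Rc3h1 and Ncoa1 (0.184 each); Ncoa1, itself a nuclear receptor coactivator, averaged 44.0, 44.9 and 31.1 normalized CPM over WT, mdx and mdxTG. Esrra lay nearest to Rxrb (0.0622), which encodes a partner of nuclear receptors and averaged 46.5, 34.7 and 29.6, and then to Keap1 and Tbc1d17. Esrrb lay nearest to Lpl (0.266), the lipoprotein lipase gene, with 668, 270 and 241, and Esrrg to Klhl34, Zdhhc23 and Homer2 (0.166 to 0.24). Tfam lay nearest to Pdss2 (0.0492), which makes the side chain of coenzyme Q, Nrf1 to Eif4g2 (0.0557), and Polrmt to Ankrd11 (0.0823). Ppargc1b lay nearest to Klf12 (0.181), Ppara to Pdpr (0.212), a regulator of pyruvate dehydrogenase phosphatase, and Ppard to Hnrnpul2 (0.0692).

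Other genes of the circuit were read from lists. Their counts stand against 16.1% of all genes lower and 18.5% higher in mdx against WT, and 12.9% lower and 15.4% higher in mdxTG against mdx. Their counts in plain CPM stand against 736 of 13831 genes lower and 5153 higher in mdx against WT. For mdxTG against mdx these were 980 lower and 3503 higher. Among 50 nuclear partners and modulators of PGC-1, 12 fell and 1 rose (Prkaa1) in mdx, with a median log2 fold of -0.12 against -0.01 for all genes. The fallers numbered 21 without WT replicates 1 and 2 together, and the risers 3 with the replicate number as a block, 2 without WT replicate 3 and 3 without WT replicate 5; the median was 0.11 in plain CPM. Perm1, a muscle gene that PGC-1 and ERR switch on, measured 337, 272, 352, 353 and 343 normalized CPM in WT, 206, 174, 257 and 203 in mdx, and 126, 122, 151 and 137 in mdxTG, without overlap between any groups. Its log2 fold was -0.66 ± 0.11 in mdx against WT (SE, limma adjusted p = 4.06e-04) and -0.64 ± 0.12 in mdxTG against mdx (adjusted p = 0.00101). The retinoid X receptors, with which the PPARs pair, fell in mdx: Rxra with a log2 fold of -0.48, Rxrb with -0.42 and Rxrg with -0.75. The repressor Hdac5 fell as well (-0.50 ± 0.07). In mdxTG against mdx 10 of the 50 fell and 4 rose (Crtc1, Hdac4, Prkaa1 and Tfeb), with a median of -0.11 against 0.00. Of the subunits of the energy sensor AMPK, Prkaa1 rose from 29.2 to 51.4 normalized CPM (log2 fold 0.80 ± 0.09, limma adjusted p = 1.24e-05) and Prkab2 fell from 427 to 202 (-1.08 ± 0.09, adjusted p = 1.02e-06), without a change of direction in plain CPM. Prkaa2, another AMPK subunit gene of the list, was among those that fell. The stress kinase gene Mapk14 fell too (-0.53 ± 0.09). The fallers numbered 6 without mdx replicate 1 or 3 or mdxTG replicate 1 or 3, and Tfeb was lost without mdx replicate 2 (adjusted p = 0.0833) or 4 (0.0996) or mdxTG replicate 1 (0.0793), 2 (0.0823) or 4 (0.0545), with log2 folds of 0.19 to 0.24. In plain CPM 7 fell and 9 rose in mdx against WT, and 4 fell and 7 rose in mdxTG against mdx.

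Among 16 genes of mitochondrial DNA replication and transcription, 5 fell and 1 rose (Primpol) in mdx, where 16.1% of all genes were lower and 18.5% higher, with a median log2 fold of -0.12. Top1mt, the mitochondrial topoisomerase, fell from 14.03 to 8.25 normalized CPM (log2 fold -0.73 ± 0.10, limma adjusted p = 8.98e-05). The nuclease gene Mgme1 (-0.49), the transcription factor gene Tfb2m (-0.36) and the helicase gene Twnk (-0.32) fell too. In plain CPM 2 genes of the list fell and 3 rose in mdx against WT, and 1 rose in mdxTG against mdx. The Primpol call was lost with the replicate number as a block (adjusted p = 0.0907), in a fit of these groups alone (0.0779), and when WT library 1, 3 or 5 or mdx library 1, 2 or 4 was left out (0.055 to 0.105). In mdxTG against mdx 0 of the 16 passed in limma, edgeR or DESeq2, and 1 did at an unadjusted p under 0.05 in limma. Among 17 genes of mitochondrial RNA processing, 6 fell and 0 rose in mdx (0 rose also at an unadjusted p under 0.05, in edgeR and in DESeq2), and 6 fell and 1 rose (Elac2) in mdxTG against mdx. In plain CPM 0 fell and 2 rose in mdx, and 1 fell and 2 rose in mdxTG against mdx. The protease gene Lonp1 fell in mdx (-0.37 ± 0.07), and the RNA granule gene Grsf1 fell in mdxTG against mdx from 134 to 97.0 normalized CPM (-0.46 ± 0.07, limma adjusted p = 1.35e-04). Without mdxTG replicate 2, 3 of the 17 fell in mdxTG against mdx, and the Elac2 call was lost without mdx replicate 2 or 4 or mdxTG replicate 2 or 4 (adjusted p = 0.0543 to 0.0705).

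Fatty acid genes known to respond to PPAR were lower in mdx in most cases. Of 25, 21 fell and 3 rose (Ucp2, Angptl4 and Plin2) in mdx, with a median log2 fold of -0.51, and 10 fell and 3 rose in plain CPM. Malonyl-CoA decarboxylase Mlycd fell from 103 to 49.9 normalized CPM (log2 fold -1.02 ± 0.09, limma adjusted p = 1.70e-06), lipid droplet perilipin Plin5 from 27.0 to 9.68 (-1.40 ± 0.17) and the thioesterase Acot2 from 14.8 to 5.99 (-1.20 ± 0.17). Lpl, the gene nearest in pattern to Esrrb, fell by 1.28 on the log2 scale. The Angptl4 call was lost without mdx replicate 3 (adjusted p = 0.0747) or 4 (0.0682). In mdxTG against mdx 4 of the 25 fell (Acadm, Acadvl, Plin2 and Vldlr) and 2 rose (Acadl and Cd36), with a median of -0.06. Vldlr, a lipoprotein receptor, fell from 365 to 252 (-0.54 ± 0.09) and the medium-chain dehydrogenase Acadm from 237 to 162 (-0.55 ± 0.10). The fallers numbered 2 without mdx replicate 2, 3 or 4 or mdxTG replicate 1, 2 or 4, 7 in a fit of these groups alone and 2 in plain CPM, where 3 rose. The Plin2 call was lost without any of these 6 libraries (adjusted p = 0.0519 to 0.0994), the Cd36 call without mdx replicate 1, 2 or 3 or mdxTG replicate 2 or 3 (0.085 to 0.102), and the Acadvl call in edgeR (0.0581) and without WT replicate 1, 4 or 5, any mdx replicate or mdxTG replicate 1, 2 or 4 (0.05 to 0.127).

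Energy genes taken as responsive to ERR and PGC-1 were lower in mdx than in WT and lower in mdxTG than in mdx in many cases. Of 28, 12 fell and 0 rose in mdx (0 rose also at an unadjusted p under 0.05, in edgeR and in DESeq2), with a median log2 fold of -0.26, and 3 fell in plain CPM. The fallers numbered 6 without WT replicate 3, 7 without WT replicate 4, 7 without mdx replicate 3 and 5 without mdx replicate 4. They included the cytochrome oxidase subunit Cox6a2 (-0.69 ± 0.15), myoglobin Mb (-0.60 ± 0.13) and the vessel growth factor Vegfa (-0.43 ± 0.10). In mdxTG against mdx 16 fell and 1 rose, with a median of -0.37, and 9 fell and 1 rose in plain CPM. Fndc5, the precursor gene of irisin, fell from 91.6 to 41.9 normalized CPM (-1.13 ± 0.13, limma adjusted p = 2.32e-05), succinate dehydrogenase subunit Sdha from 939 to 666 (-0.50 ± 0.09) and complex I subunit Ndufs1 from 475 to 326 (-0.55 ± 0.11). Against WT, 26 of the 28 fell in mdxTG and 1 rose, where 25.3% of all genes were lower and 28.7% higher. The median was -0.64 against 0.02 for all genes. In plain CPM 15 fell and 1 rose, where 1181 of 13831 genes were lower and 7916 higher.

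Messenger RNAs of the mitochondrial genome, the product of TFAM and POLRMT, numbered 12. In mdx 8 fell and 0 rose (0 rose also at an unadjusted p under 0.05, in edgeR and in DESeq2), with a median log2 fold of -0.57, and 3 fell in plain CPM. The fallers numbered 5 without WT replicate 2, 4 without mdx replicate 3, 4 without mdx replicate 4, 5 with a filter of 5 CPM and 4 in a fit of these groups alone. In mdxTG against mdx 3 fell (mt-Nd2, mt-Nd5 and mt-Nd6) and 0 rose in limma, where 1 was higher at an unadjusted p under 0.05 and 1 rose in plain CPM, edgeR and DESeq2 each. The median was -0.43, and 1 fell without mdx replicate 1 or 2 or mdxTG replicate 2 or 4; DESeq2 gave 7. The mt-Nd2 call was lost without the same 4 libraries (adjusted p = 0.0711 to 0.0814), and the mt-Nd6 call without them or WT replicate 3 or 4 (0.054 to 0.147) and in edgeR (0.0503). The complex I gene mt-Nd5 fell from 20322 normalized CPM in WT to 14816 in mdx (-0.45 ± 0.13, limma adjusted p = 0.0151) and to 9630 in mdxTG (-0.62 ± 0.14 against mdx, adjusted p = 0.0037). The mt-Nd5 call in mdx against WT was lost in a fit of these groups alone (adjusted p = 0.0554), in that fit with the replicate number as a block (-0.44, 0.0876) and in plain CPM (-0.22, 0.139). Nuclear copies of mitochondrial sequence can share reads with some of these genes, and poly(A) selection sets which of their transcripts are captured, so their levels are uncertain.

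**Figure D5:**
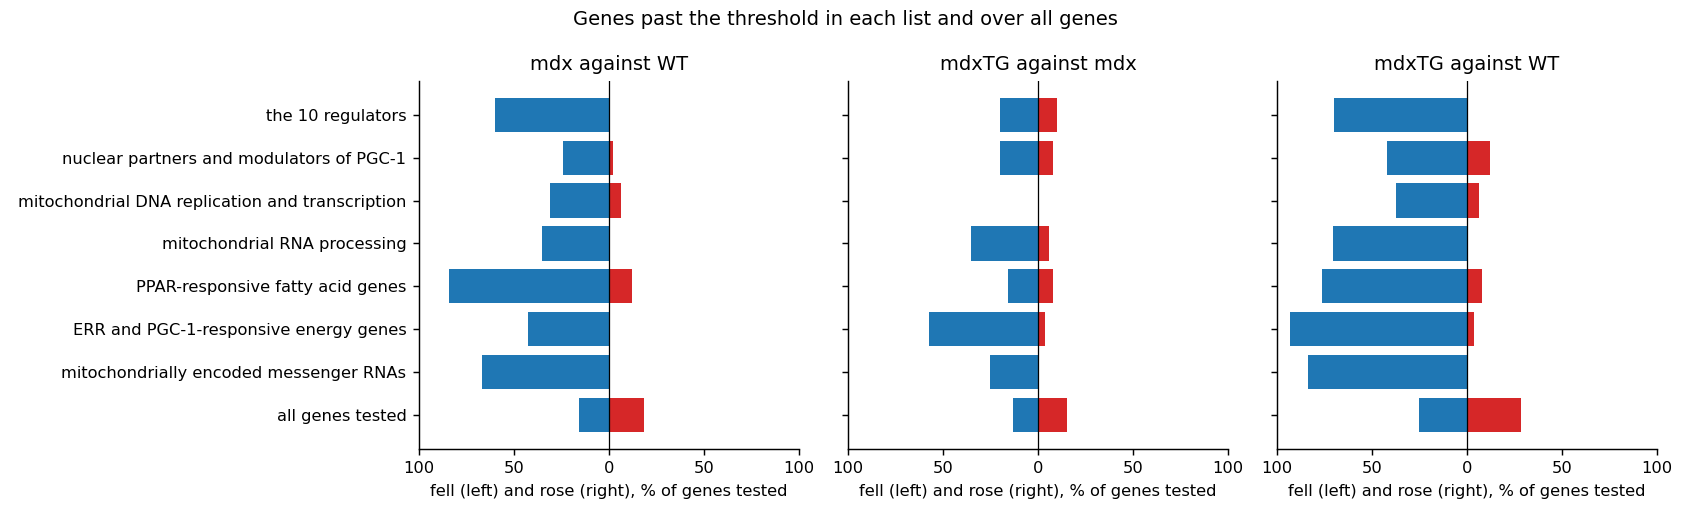
Percentage of tested genes (x axis) that fell (blue, left) or rose (red, right) in each list (y axis) and over all genes, by comparison, with the authors' scaling. In mdx against WT 16.1% of all genes fell, compared with 6 of 10 regulators and 21 of 25 fatty acid genes. In plain CPM, not drawn here, 2 regulators and 10 fatty acid genes fell, where 736 of all 13831 genes fell.

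Markers of other cells moved with the same groups. The summed level of 9 macrophage markers was 62.9 to 208 normalized CPM for WT, 330 to 638 for mdx and 726 to 807 for mdxTG, with 0 of the 9 at 0 in any group. The single markers did not all follow this sum. In mdxTG against mdx 2 of the 9 rose (Cd68 and Lgals3) and 2 fell (Mpeg1 and Trem2). Their median log2 fold was -0.20, where 15.4% of all genes were higher and 12.9% lower. The summed level of 7 regenerating fibre markers was, in the same order of groups, 40.8 to 112, 257 to 635 and 247 to 306. All 7 rose in mdx against WT, where 18.5% of all genes were higher. In mdxTG against mdx 5 of the 7 fell and 1 rose (Ncam1), with 2 to 6 lower over the leave-outs. The summed level of 7 fibroblast markers was 985 to 2552, 2272 to 3872 and 3396 to 5112. The summed level of 5 fast glycolytic fibre markers was 67100 to 99240 (WT), 46080 to 58170 (mdx) and 26220 to 32160 (mdxTG). The 2 fast oxidative fibre markers, Myh1 and Myh2, summed to 9258 to 17000 (WT), 12670 to 19130 (mdx) and 14920 to 23030 (mdxTG). Of these, Myh2 fell in mdx against WT and rose in mdxTG against mdx, where 0 rose in DESeq2. Smooth muscle markers, 5 in number, summed to 609.9 to 819.8 (WT), 459.8 to 649.6 (mdx) and 555 to 597 (mdxTG), with 4 of the 5 lower in mdx against WT and no overlap between WT and mdxTG. Under the authors' scaling, the group means of 7 of the 10 regulators, all but Ppargc1b, Esrrb and Esrrg, were highest in WT and lowest in mdxTG. The fast glycolytic markers had the same order. Ppard was nearly equal in mdx (25.01) and mdxTG (24.99). In plain CPM only Esrra and Ppara of these 7 kept this order. Ppargc1a, Tfam and Nrf1 were then highest in mdx, Polrmt lowest in mdx and Ppard highest in mdxTG. The part of these cell markers in the results was not tested. The sums of endothelial markers (327.5 to 483 in WT, 332 to 416 in mdx, 333 to 402 in mdxTG) and adipocyte markers (173 to 308, 167 to 201, 175 to 222) overlapped between the genotypes. Single markers still passed. Of 7 adipocyte markers, 3 rose in mdxTG against mdx (Adipoq, Plin1 and Retn), and 0 to 3 over the leave-outs. Of 7 endothelial markers, 3 fell in mdxTG against WT (Pecam1, Tek and Esam), and 1 to 3 over the leave-outs, where 25.3% of all genes were lower.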

How the data were processed

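Libraries were prepared with a TruSeq Stranded kit from TRIzol and RNeasy RNA, per the labels' protocols. The submitters' processing notes name STAR, bcl2fastq 2.17, edgeR and mm10. Not given in the sources used here: which program counted reads, and with which strand setting and gene models. The authors deposited the count of total and mapped reads per library, and what fraction mapped. In the authors' sheet each gene has a normalized signal, called CPM, equal to reads divided by an effective library size, so fold changes between groups rest on the authors' scaling. In units of 1000, column totals lie between 839.6 and 1203.4, and 100% of its values were whole reads within 0.001, with the largest deviation 2.9e-09 reads. The authors' deposited comparison tables give a log2 fold, a p-value and an adjusted p-value per gene. Their deposited pathway sheets, with −log10 p-values and scores, were not used here.

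The test was limma 3.58.1 (R 4.3.3; empirical Bayes with a trend) on log2 of normalized CPM plus 0.5, on which folds of weakly expressed genes come out too small. A single fit held all 13 libraries, with genes of at least 0.5 CPM in 4 libraries. Two-sided p-values were adjusted over 13831 genes (Benjamini-Hochberg), and "rose" and "fell" mean an adjusted p under 0.05. On the recovered reads, the numbers of genes called by edgeR 4.0.16, DESeq2 1.42.0 and limma were 4814, 5273 and 4782 in mdx against WT, 3913, 4489 and 3922 in mdxTG against mdx, and 7491, 7806 and 7468 in mdxTG against WT. Other alternatives were plain CPM, other pseudocounts and filters, median-of-ratios scaling, fits of 2 groups, replicate blocks and leave-outs. The scripts were tested on simulated data.

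The replicate numbers come from the labels. Deviations of same-numbered WT and mdx libraries correlated at 0.181 to 0.445, over the limit of 0.1 in all 4 pairs. Those of mdxTG with WT (-0.468 to 0.245) and mdx (-0.356 to 0.406) did not all pass it. Libraries with different numbers were not compared, so these values cannot show whether the numbers pair the libraries. No replicate pair agreed within sampling noise (chi-square per degree of freedom 24.2 to 181.5). The regulators and gene lists were chosen with earlier results of these data known. Genes to name were all regulators, the 4 of each list with the smallest p in mdx against WT and in mdxTG against mdx, and the 3 nearest in pattern to each regulator among genes with a mean of at least 1 CPM, of which the text gives a part; genes named beside a count of 5 or fewer were chosen after their values were seen. Acot1, Ucp1, Mterf1a, Mterf1b, Prorp and mt-Nd4l were not analysed here. A gene that the rule named is not reported here. Gene coordinates and exon lengths are from GENCODE M21, matched by symbol for 98.8% of genes.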

Additional observations from a re-analysis of the deposited data

Results flagged for a closer look

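Among 45 groups of 4 or 5 values examined, 2 held a library far from the others by Dixon's criterion, which chance meets in about 1 group in 20. Esrrg in mdxTG replicate 1 was 16.14 normalized CPM, below the other 3 mdxTG libraries at 22.8 to 23.3, with a gap of 0.927 of the range against a critical value of 0.829. Polrmt in mdx replicate 3 was 26.45 normalized CPM, above the other 3 mdx libraries at 21.2 to 22.04, with a gap of 0.835 of the range against the same critical value.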

How the results depend on the processing

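In plain CPM, without the scaling factors, 2 regulators passed in mdx against WT, 1 in mdxTG against mdx and 3 in mdxTG against WT. Over all 13831 genes, those that passed in plain CPM numbered 5889, 4483 and 9097 in the same order. Log2 folds that changed sign in plain CPM were, in mdx against WT, Ppargc1a (0.23), Tfam (0.022), Nrf1 (0.15) and Ppard (0.13); in mdxTG against mdx, Ppard (0.14) and Polrmt (0.061); and in mdxTG against WT, Nrf1 (0.068) and Ppard (0.26). Esrrb in mdxTG against mdx changed sign with a pseudocount of 0.1 (-0.0061) and with median-of-ratios scaling (-0.011), and Ppargc1b in mdxTG against WT without WT replicates 1 and 2 together (-0.17). Leaving out 1 library at a time, the regulators that passed numbered 4 to 7 in mdx against WT, 0 to 4 in mdxTG against mdx and 6 to 8 in mdxTG against WT, and all genes 3780 to 5257, 3121 to 4591 and 6608 to 7819. Over these leave-outs the folds that changed sign were those of Ppargc1a in mdx against WT (-0.17 to 0.11), Esrrb (-0.12 to 0.23) and Ppard (-0.045 to 0.067) in mdxTG against mdx, and Ppargc1b in mdxTG against WT (-0.067 to 0.21). With the replicate number as a block, mdx against WT gave 5 regulators in the fit of all libraries, without Ppargc1b. With the block, the fit of both groups alone gave 6, and Ppargc1a changed sign (0.11 in each blocked fit). Without the block, the fit of both groups alone gave 4 (Esrra, Esrrb, Esrrg and Polrmt), so there the block added Ppargc1b and Tfam. In mdxTG against mdx and against WT, the block gave 3 and 7 regulators in the fit of all libraries and 4 and 5 in the fits of 2 groups. Whether the replicate numbers pair any of the libraries is not known. The cause of these changes was not tested. Esrrb, with 65 to 437 reads a library, had the lowest depth of the 10 regulators.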
